A study of Mus musculus with 40 samples.

Results

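The genes that move calcium in the cardiomyocyte were examined in hearts of mice made to express interleukin 11 (*Il11*) in cardiomyocytes. The 10 genes are *Atp2a2*, *Pln*, *Sln*, *Ryr2*, *Casq2*, *Trdn*, *Jph2*, *Cacna1c*, *Slc8a1* and *Camk2d*, found by gene symbol in each of 2 deposited tables, 1 per sex. A row was found for 9 of the 10, among 17646 genes listed in males and 17223 in females, and *Sln* was not analysed here. CM-Il11-Tg mice are heterozygous for α-MHC-MerCreMer (MCM), a Cre driven by a cardiomyocyte promoter that acts after tamoxifen, and for a Rosa26-Il11 transgene. The MCM line was on C57BL/6J and the Rosa26-Il11 line on C57BL/6N. Tamoxifen was given from 8 weeks of age, at 20 mg/kg by intraperitoneal injection on 5 consecutive days, and CM-Il11-Tg hearts were taken 1, 3 and 6 weeks later (T1wk, T3wk and T6wk). Controls (WT) were age-matched littermates that carried MCM but not Rosa26-Il11 and also received tamoxifen. The labels give Baseline as the time point of WT, so 1 WT group was set against all 3 weeks, and time since tamoxifen and age at collection may differ between WT and induced hearts. Uninduced mice (T0wk) were CM-Il11-Tg without tamoxifen, so that T0wk and WT differ in transgene and in tamoxifen. Each library is polyA RNA from 1 mouse, with 4 mice per group and sex, except 3 in male WT and 3 in male T6wk, since 2 male libraries have labels that contradict each other and entered no test. The labels name the tissue as heart, and the study's text as left ventricle.

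In each heartbeat, calcium enters the cardiomyocyte through the L-type channel, whose pore is encoded by *Cacna1c*, and triggers a larger release from the sarcoplasmic reticulum through the ryanodine receptor, encoded by *Ryr2*. Calsequestrin (*Casq2*) stores calcium next to that receptor, triadin (*Trdn*) anchors it there, and junctophilin (*Jph2*) holds the reticulum against the T-tubule. The heart relaxes when the SERCA pump (*Atp2a2*), held back by phospholamban (*Pln*), returns calcium to the reticulum and the sodium-calcium exchanger (*Slc8a1*) removes it from the cell. The kinase encoded by *Camk2d* responds to calcium and phosphorylates several of these proteins.

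Reads recovered on the listed genes numbered 16663513 to 65333832 per library in males and 19147947 to 30929192 in females. *Il11* was at or under 0.166 CPM in every WT heart, at 16.5 to 23.3 CPM in male and 15.5 to 49.1 CPM in female T0wk hearts, and at 336 to 819 and 328 to 614 CPM in induced hearts. The summed level of 12 cardiomyocyte markers was 60169 to 73247 CPM in male WT, 40364 to 64946 in male T1wk, 48353 to 58396 in male T3wk and 40492 to 51082 in male T6wk hearts. In females it was 45341 to 65125, 37879 to 53357, 44274 to 54290 and 38597 to 49451 CPM in the same order. The summed level of 7 fibroblast markers was 612 to 964 CPM in male WT against 4108 to 8693 in induced male hearts, and 720 to 976 against 4304 to 10197 in females. That of 6 macrophage markers was 181 to 300 against 678 to 1102 CPM in males and 169 to 224 against 791 to 1103 in females. In T0wk hearts the fibroblast sum was 1094 to 1721 CPM in males and 1194 to 1625 in females, above every WT heart. The macrophage sum there was 271 to 385 CPM in males, overlapping WT, and 317 to 426 in females, above WT. The cardiomyocyte sum in T0wk was 66573 to 71698 CPM in males and 47338 to 60726 in females. By limma 6 or 7 of the 7 fibroblast markers and 6 of the 6 macrophage markers rose at each week in each sex, and 3 to 5 of 6 endothelial markers and at most 1 of 5 smooth muscle markers fell. Both rising lists moved together with the lower calcium genes, and their part in those results was not tested. In a tissue extract, fewer cardiomyocytes and less RNA per cardiomyocyte cannot be told apart. The atrial list (*Bmp10* not listed in either sex, *Myl7* not in males) was at most 90.9 CPM in males and 94.8 in females, apart from a female T1wk library at 192 and female T6wk replicate 2 at 848. The fast skeletal myosin genes *Myh1*, *Myh2* and *Myh4* were not listed, and the rest of the skeletal list summed to at most 11.4 CPM.

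A group of 5 female libraries stood apart in another measure. The transcript *Gm47644*, on the strand opposite to *Pln*, had 0.0792 to 0.261% of the value of *Pln* in T0wk replicate 4, T1wk replicate 2 and T6wk replicates 2, 3 and 4, against 1.02 to 2.8% in the other 33 libraries with a group. Since 3 of the 4 female T6wk libraries are among them, the female T6wk changes of the calcium genes are also given with this split as a term in the fit.

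The first question was which calcium genes differed from WT after induction. A gene was called when limma, fitted to log2(CPM + 0.5) over every gene of a sex, gave a Benjamini-Hochberg adjusted p under 0.05, and fold changes are on that scale. In males 3 of 9 genes were lower at T1wk, 2 at T3wk and 4 at T6wk, and in females 1, 4 and 4. None was higher by limma, edgeR or DESeq2, and each log2 fold change of these genes against WT after induction was below 0. Among all genes tested, 14.6% were called lower and 18.9% higher at T1wk in males, 8.1% and 13.2% at T3wk, and 10.9% and 16.2% at T6wk. In females these shares were 13.1% and 15.3% at T1wk, 14.5% and 16.8% at T3wk, and 21% and 21.7% at T6wk. The female T1wk count, 1 of 9, is near its background. The median log2 fold change of the 9 genes was -0.36, -0.31 and -0.44 in males and -0.31, -0.39 and -0.32 in females, where the median over all genes lay between -0.02 and 0.02.

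**Figure D1:**
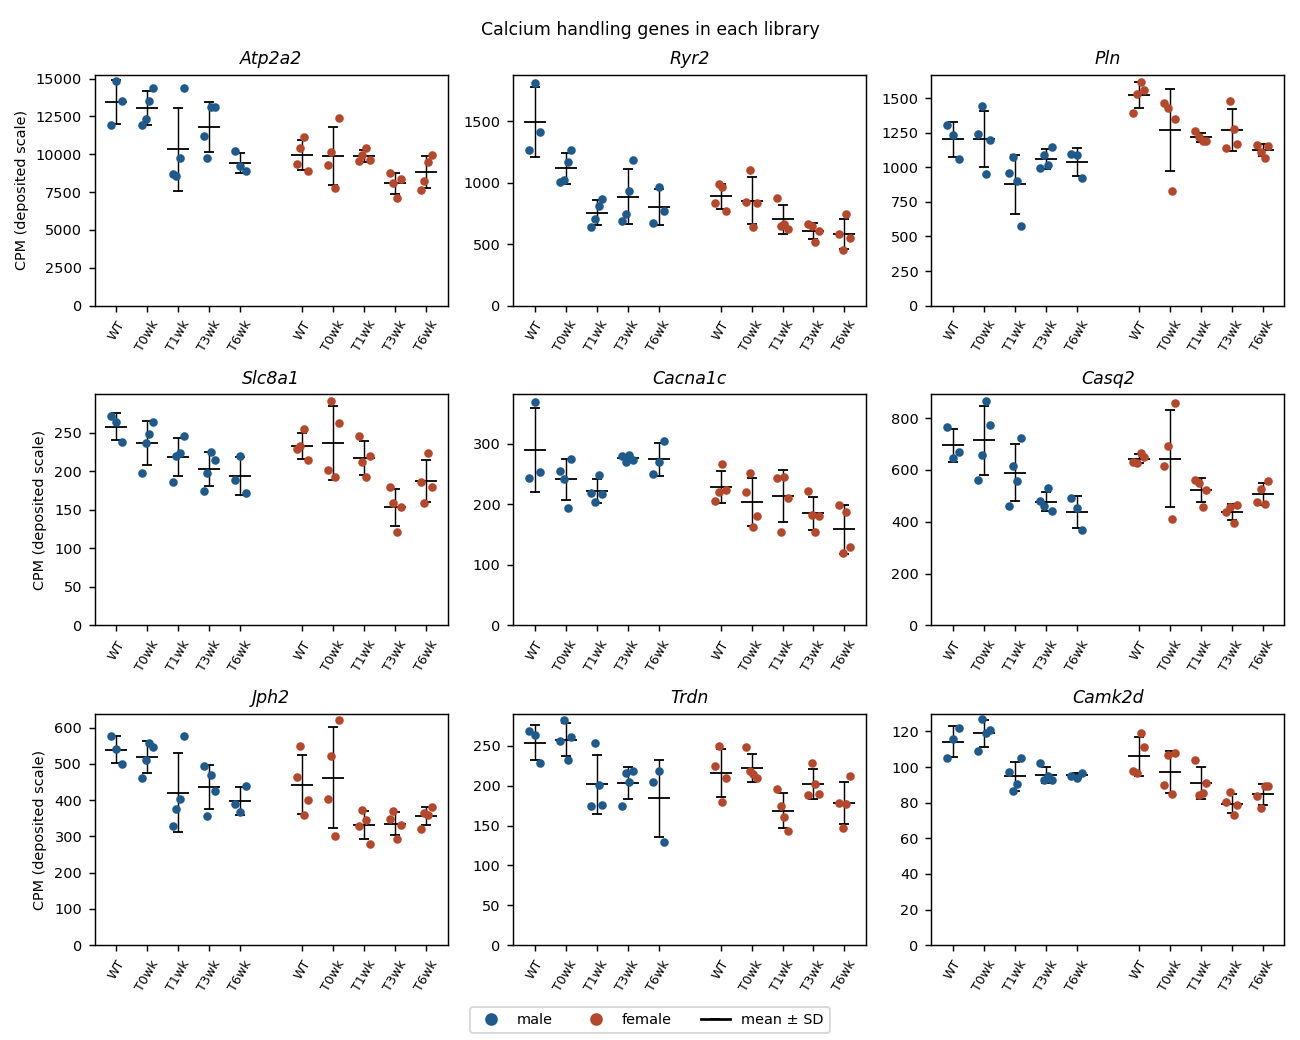
CPM of the 9 calcium handling genes (y axis, deposited scale, from 0) in each library (points), by group (x axis) and sex (blue, male; red, female), with the mean ± SD of each group in black. *Ryr2* in the 11 induced male hearts lies between 644 and 1183 CPM, below every male WT heart.

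*Ryr2* showed the largest fall of the 9 genes at every week in males and at T6wk in females. The gene lies at chr13:11567988-12121870 of GRCm39 on the minus strand, and its exons were counted. In males it stood at 1263, 1813 and 1410 CPM in WT hearts, at 644, 707, 808 and 868 at T1wk, at 688, 742, 936 and 1183 at T3wk, and at 670, 962 and 772 at T6wk. Each induced male heart was thus below each WT heart. The log2 fold change was -0.98 (95% interval -1.36 to -0.59, adjusted p = 0.000503) at T1wk, -0.77 (-1.16 to -0.38, adjusted p = 0.00483) at T3wk and -0.90 (-1.31 to -0.48, adjusted p = 0.00208) at T6wk, or 49.1%, 41.3% and 46.4% lower. These 3 calls held when any 1 library was left out. In females WT hearts had 834, 987, 966 and 773 CPM, T1wk hearts 876, 651, 667 and 620, T3wk hearts 667, 646, 516 and 608, and T6wk hearts 583, 449, 744 and 549. The female groups overlapped WT at T1wk only, through replicate 1 at 876 CPM, and the fall there did not pass (log2 fold change -0.35 ± 0.16 SE, adjusted p = 0.121). At T3wk *Ryr2* was 31.5% lower (log2 fold change -0.55 ± 0.16 SE, adjusted p = 0.0142), a call lost without T3wk replicate 3 (adjusted p = 0.0566). At T6wk it was 35.5% lower (-0.63 ± 0.16 SE, adjusted p = 0.00408), and -0.59 (adjusted p = 0.0292) with the antisense split as a term.

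The other proteins of the release complex followed unevenly. *Casq2* (chr3:101993234-102056307, plus strand) was at 767, 648 and 669 CPM in male WT hearts, at 459, 616, 557 and 722 at T1wk, at 479, 461, 529 and 443 at T3wk, and at 490, 452 and 368 at T6wk. Male T3wk and T6wk hearts lay wholly below WT, while T1wk hearts overlapped. The fall was 31.2% at T3wk (log2 fold change -0.54 ± 0.16 SE, adjusted p = 0.0203) and 37.5% at T6wk (-0.68 ± 0.17 SE, adjusted p = 0.00614). The T3wk call was lost without T3wk replicate 4 or WT replicate 1, and the T6wk call held without any 1 library. Female WT hearts were close together at 631, 626, 664 and 651 CPM, against 560, 549, 458 and 521 at T1wk, 437, 458, 397 and 465 at T3wk, and 475, 528, 468 and 559 at T6wk. Every induced female heart was below every WT heart, yet only T3wk passed (31.8% lower, -0.55 ± 0.15 SE, adjusted p = 0.00727). At T6wk the log2 fold change was -0.34 (adjusted p = 0.0663), and -0.56 (adjusted p = 0.0124) with the antisense split as a term.

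*Trdn* (chr10:32956550-33356376, plus strand) was at 269, 264 and 229 CPM in male WT hearts and at 205, 218 and 129 at T6wk, with T1wk hearts at 175, 254, 201 and 176 and T3wk hearts at 175, 216, 204 and 218. Male T3wk and T6wk hearts did not overlap WT, and only T6wk passed (29.3% lower, log2 fold change -0.50 ± 0.17 SE, adjusted p = 0.0359). Without T6wk replicate 4, the heart at 129 CPM, the change was -0.27 (adjusted p = 0.197), and the call was also lost without WT replicate 1 (adjusted p = 0.103) or 3 (0.108). In females WT hearts had 225, 250, 179 and 209 CPM, T1wk hearts 196, 175, 161 and 143, T3wk hearts 188, 229, 202 and 190, and T6wk hearts 178, 147, 177 and 212. All 3 female groups overlapped WT, and the T1wk fall passed (-0.35 ± 0.12 SE, 21.7% lower, adjusted p = 0.0327) but was lost on leaving out any of 5 libraries in turn. The T6wk change, -0.27 (adjusted p = 0.071), was -0.26 (adjusted p = 0.182) with the antisense split as a term. A lncRNA on the opposite strand, *D830005E20Rik*, covers 5.61% of the exon bases of *Trdn*.

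*Jph2* (chr2:163178162-163239920, minus strand) passed at no week in either sex by limma, and in males at T6wk by DESeq2 (adjusted p = 0.0335). Its values in male WT hearts were 576, 542 and 500 CPM, against 328, 376, 402 and 577 at T1wk, 494, 357, 470 and 425 at T3wk, and 388, 366 and 440 at T6wk. Hearts at T3wk and T6wk lay below WT, and at T1wk replicate 4 had the highest value of both groups. The male log2 fold changes were -0.39 (adjusted p = 0.0638), -0.31 (0.178) and -0.44 (0.059), and without T1wk replicate 4 the first became -0.55 (adjusted p = 0.0035). In females WT hearts had 360 to 549 CPM and induced hearts 279 to 380, with log2 fold changes of -0.41, -0.39 and -0.30 (adjusted p = 0.0776, 0.0882 and 0.161). With the antisense split as a term *Jph2* passed in females at T1wk (-0.50, adjusted p = 0.0164), T3wk (-0.39, adjusted p = 0.0463) and T6wk (-0.57, adjusted p = 0.0207). This split was chosen after seeing the data. With the 5 low-antisense libraries left out the changes were -0.47, -0.39 and -0.45, the last from T6wk replicate 1 alone. *Jph2* then did not pass at T3wk.

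The pump gene *Atp2a2* (chr5:122591575-122640903, minus strand) also passed at no week by limma, while DESeq2 called it in males at T1wk (adjusted p = 0.0437) and T6wk (adjusted p = 0.0136). Male WT hearts had 11963, 14830 and 13540 CPM, T1wk hearts 8670, 8565, 9723 and 14381, T3wk hearts 11205, 9755, 13112 and 13114, and T6wk hearts 10196, 9210 and 8893. Of the male groups only T6wk lay wholly below WT, with a log2 fold change of -0.51 ± 0.24 SE (95% interval -1.01 to -0.01, adjusted p = 0.123). At T1wk replicate 4 was as high as WT. The change there was -0.41 (adjusted p = 0.17), and -0.58 (adjusted p = 0.0212) without that heart. Female WT hearts had 9368, 10419, 11119 and 8926 CPM, T1wk hearts 9546, 9951, 10407 and 9617, T3wk hearts 8761, 8082, 7111 and 8364, and T6wk hearts 7666, 8262, 9462 and 9979. At T3wk each was below WT. The female log2 fold changes were -0.01 (95% interval -0.34 to 0.33), -0.30 (-0.63 to 0.03) and -0.17 (-0.51 to 0.16). Their adjusted p ranged from 0.165 to 0.982. With the antisense split as a term the T6wk change was -0.36 (adjusted p = 0.145), and without the 5 low-antisense libraries -0.37 (adjusted p = 0.224). The transcript *Gm43361* covers 26.2% of the exon bases of *Atp2a2* on the opposite strand.

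*Pln* (chr10:53199622-53223512, plus strand), the inhibitor of that pump, was called once in each sex. Male WT hearts had 1308, 1234 and 1063 CPM, T1wk hearts 956, 1076, 903 and 576, T3wk hearts 991, 1092, 1015 and 1147, and T6wk hearts 1098, 1090 and 921. All 3 male groups overlapped WT. The T1wk fall (28.5%, log2 fold change -0.49 ± 0.18 SE, adjusted p = 0.0441) was lost without replicate 4, the heart at 576 CPM (-0.30, adjusted p = 0.13), and also without T1wk replicate 3 (adjusted p = 0.0597) or WT replicate 1 (0.14) or 3 (0.123), and T3wk and T6wk gave -0.18 and -0.21 (adjusted p = 0.552 and 0.445). Male T1wk replicate 4 therefore had the lowest *Pln* of its group and the highest *Atp2a2* and *Jph2*. Female WT hearts had 1391, 1526, 1615 and 1559 CPM, T1wk hearts 1261, 1221, 1192 and 1189, T3wk hearts 1141, 1477, 1279 and 1169, and T6wk hearts 1159, 1112, 1064 and 1151. T1wk and T6wk hearts lay below WT. Only T6wk passed (26.3% lower, -0.44 ± 0.14 SE, adjusted p = 0.0159), a call that held without any 1 library and with the antisense split as a term (-0.47, adjusted p = 0.042). *Gm47644* shares 43.6% of the exon bases of *Pln*. The study's methods name a directional library kit, but whether reads were then counted by strand is not given in the sources used here.

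Of the genes of calcium entry and removal, the channel gene passed in 1 sex and the exchanger gene in both, at different weeks. *Cacna1c* (chr6:118564201-119173851, minus strand) was at 244, 369 and 254 CPM in male WT hearts, at 218, 203, 249 and 217 at T1wk, at 279, 269, 282 and 273 at T3wk, and at 250, 270 and 304 at T6wk. The male groups overlapped WT throughout, with log2 fold changes of -0.36 (adjusted p = 0.0517), -0.04 (0.873) and -0.05 (0.83). Female WT hearts had 206, 220, 266 and 223 CPM, T1wk hearts 244, 154, 245 and 210, T3wk hearts 222, 182, 155 and 181, and T6wk hearts 199, 119, 187 and 130. Female T6wk hearts lay below WT and passed (31.8% lower, -0.55 ± 0.18 SE, adjusted p = 0.0174). The 2 lowest, replicates 2 and 4, are low-antisense libraries. Without replicate 2 the change was -0.43 (adjusted p = 0.0762), without replicate 4 -0.47 (0.0602), without WT replicate 3 -0.48 (0.0572), and with the antisense split as a term -0.24 (adjusted p = 0.345).

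*Slc8a1* (chr17:81680534-82045891, minus strand) was at 272, 263 and 238 CPM in male WT hearts, at 186, 219, 223 and 245 at T1wk, at 174, 198, 225 and 214 at T3wk, and at 189, 220 and 172 at T6wk. T3wk and T6wk hearts lay below WT. The T6wk fall passed (25.1%, log2 fold change -0.42 ± 0.14 SE, adjusted p = 0.029; lost without WT replicate 1 or 3 or T6wk replicate 1 or 4) and that at T3wk did not (-0.35 ± 0.13 SE, adjusted p = 0.0574). Female WT hearts had 228, 232, 255 and 215 CPM, T1wk hearts 245, 212, 192 and 219, T3wk hearts 179, 159, 121 and 153, and T6wk hearts 186, 159, 224 and 179. Only T3wk hearts were wholly below WT, and there *Slc8a1* had the largest fall of the 9 genes in females at that week (34.7%, -0.61 ± 0.14 SE, adjusted p = 0.0019), held without any 1 library. The female T6wk change was -0.32 (adjusted p = 0.0657), and -0.37 (adjusted p = 0.101) with the antisense split as a term.

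*Camk2d* (chr3:126389945-126639982, plus strand) had the smallest standard errors of the 9 genes, and its falls were small. Male WT hearts had 105, 116 and 122 CPM, T1wk hearts 97, 86.6, 90.5 and 105, T3wk hearts 102, 92.7, 95.1 and 92.7, and T6wk hearts 95.2, 94 and 96.9. No induced male heart reached the lowest WT heart. Only T1wk passed (17% lower, log2 fold change -0.27 ± 0.09 SE, adjusted p = 0.0309), and T3wk and T6wk gave -0.25 and -0.26 (adjusted p = 0.0583 and 0.0624). The T1wk call was lost without WT replicate 3 or 4 or T1wk replicate 2 or 3 (adjusted p = 0.0747 to 0.133). Female WT hearts had 97.7, 96.6, 119 and 111 CPM, T1wk hearts 104, 84.5, 85.3 and 91.3, T3wk hearts 80.3, 86, 73 and 78.8, and T6wk hearts 84, 76.8, 89.4 and 89.1. Female T3wk and T6wk hearts lay below WT and passed, 24.8% lower (-0.41 ± 0.10 SE, adjusted p = 0.00327) and 19.9% lower (-0.32 ± 0.10 SE, adjusted p = 0.0137). The T6wk call was lost without WT replicate 3 (adjusted p = 0.0534) or T6wk replicate 2 (0.0522), and the value with the antisense split as a term was -0.34 (adjusted p = 0.0358). When all 5 low-antisense libraries were left out, which leaves 1 female T6wk heart assumed to vary like the other groups, none of the 9 genes passed at T6wk in females by limma, and 3 had an unadjusted p under 0.05. The changes were then -0.60 for *Ryr2* (adjusted p = 0.0973), -0.39 for *Pln* (0.27), -0.19 for *Cacna1c* (0.581) and -0.33 for *Camk2d* (0.144).

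**Figure D2:**
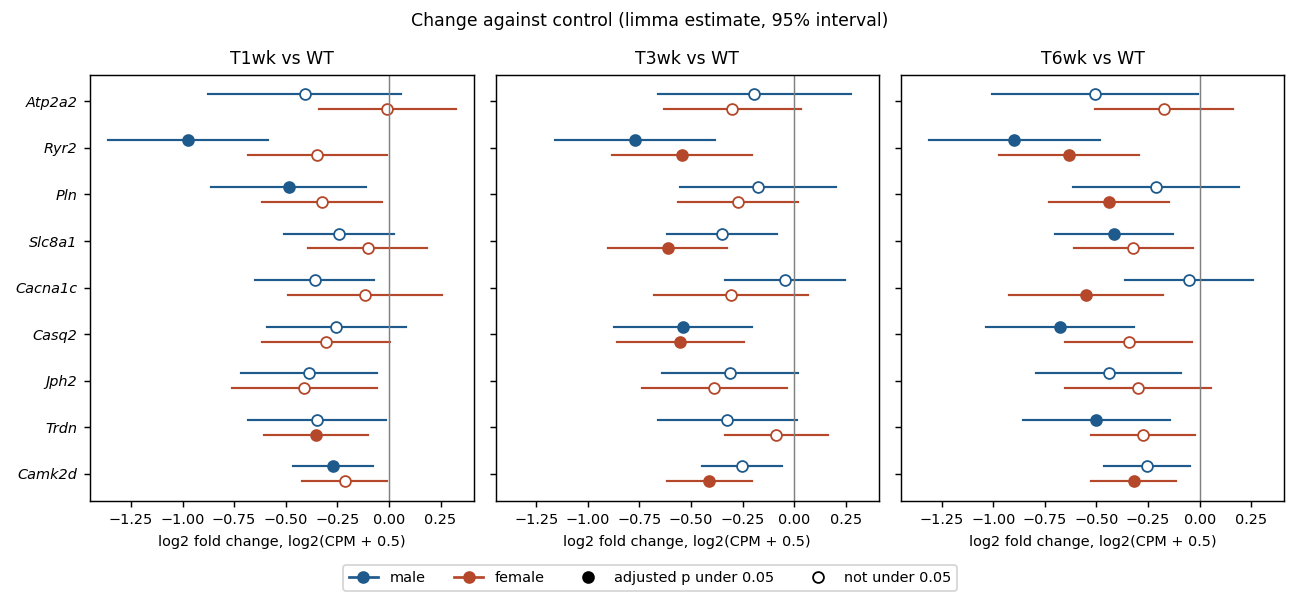
Log2 fold change of each gene against WT (x axis, log2(CPM + 0.5) scale) at T1wk, T3wk and T6wk, with limma 95% intervals; blue is male and red female, and filled points have an adjusted p under 0.05. All filled points lie below 0, and *Ryr2* in males is farthest left, at -0.98, -0.77 and -0.90.

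The sequence just upstream is shown for some of these genes. RefSeq promoters of build GRCm38.p6 were held for 7 of the 10 genes (10 promoters); *Atp2a2*, *Sln* and *Trdn* had none. Both strands were searched for TTCNNNGAA, a site form of STAT factors, which act downstream of IL11 family receptors, for a MEF2 form (CTA and TAG with 4 bases between them) and for the GATA form, which reads AGATAA. *Ryr2*, with the largest falls, is shown with the genes whose promoters held a match, in capitals: *Pln* (AGATAA on the minus strand, so printed as TTATCT, 183 bases before the start), *Slc8a1* (AGATAA, 68 bases before) and the last of the *Cacna1c* promoters (TTCNNNGAA, 115 bases before). They lie at chr13:12106896-12107195 (minus strand), chr10:53337436-53337735 (plus), chr17:81738338-81738637 (minus) and chr6:118757925-118758224 (minus).
Ryr2: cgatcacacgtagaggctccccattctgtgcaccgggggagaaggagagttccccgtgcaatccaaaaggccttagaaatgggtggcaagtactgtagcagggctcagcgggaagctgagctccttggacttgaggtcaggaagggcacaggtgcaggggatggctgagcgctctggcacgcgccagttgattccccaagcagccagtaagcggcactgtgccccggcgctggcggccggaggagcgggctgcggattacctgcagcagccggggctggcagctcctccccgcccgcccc
Pln: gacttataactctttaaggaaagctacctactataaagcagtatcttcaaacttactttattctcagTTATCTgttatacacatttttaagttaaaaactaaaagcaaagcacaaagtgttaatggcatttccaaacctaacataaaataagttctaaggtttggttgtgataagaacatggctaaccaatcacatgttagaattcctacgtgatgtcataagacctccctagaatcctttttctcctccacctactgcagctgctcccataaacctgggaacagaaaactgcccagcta
Slc8a1: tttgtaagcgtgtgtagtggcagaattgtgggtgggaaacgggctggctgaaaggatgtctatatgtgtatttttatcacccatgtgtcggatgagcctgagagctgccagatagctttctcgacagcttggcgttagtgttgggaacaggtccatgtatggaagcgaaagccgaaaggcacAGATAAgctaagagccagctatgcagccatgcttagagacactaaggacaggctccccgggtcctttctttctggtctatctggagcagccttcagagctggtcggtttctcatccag
Cacna1c: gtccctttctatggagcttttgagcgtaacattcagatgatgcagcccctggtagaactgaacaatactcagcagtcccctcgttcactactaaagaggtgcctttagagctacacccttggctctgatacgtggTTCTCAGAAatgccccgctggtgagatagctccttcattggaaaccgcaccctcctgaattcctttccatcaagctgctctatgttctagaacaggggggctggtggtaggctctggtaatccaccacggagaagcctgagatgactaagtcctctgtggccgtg
Of 32851 promoters of the same length, 8.3% held the STAT form, 3.69% the MEF2 form and 11.2% the GATA form. No promoter of the 7 genes held the MEF2 form, and these matches are descriptions of letters.

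The next question was how the uninduced transgenic hearts stood. No gene passed in T0wk against WT in either sex by limma, edgeR or DESeq2, where 0.0354% of all genes were called lower and 0.561% higher in males, and 0.466% and 2.41% in females. At an unadjusted p under 0.05 limma gave 1 gene in each sex. In males this was *Ryr2*, at 1006, 1024, 1172 and 1267 CPM in T0wk hearts, of which 3 of 4 were below the lowest WT heart and the highest overlapped WT (log2 fold change -0.41, 95% interval -0.80 to -0.02, adjusted p = 0.447). In females it was *Pln*, at 1466, 1427, 829 and 1347 CPM (-0.30, adjusted p = 0.311). Female T0wk replicate 3, the heart at 829 CPM, had the highest *Il11* of the T0wk hearts (49.1 CPM) and the lowest *Casq2* (412 CPM) and *Ryr2* (640 CPM) of its group. It was also lowest of its group in *Atp2a2* (7753 CPM), *Jph2* (302), *Slc8a1* (192), *Cacna1c* (162) and *Camk2d* (84.7), though not in *Trdn*. Its mean log2 level of the 12 cardiomyocyte markers was the lowest too, at 11.284 against 11.456 to 11.654.

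T6wk hearts were then set against T0wk hearts, which share the transgenes and differ in tamoxifen. T0wk hearts were not free of marker changes against WT. Limma called 1 of 7 fibroblast markers higher in each sex, and 0 of 6 macrophage markers in males and 6 of 6 in females. Over all genes, 0.561% and 2.41% were higher in T0wk than in WT. The labels give Baseline as the time point of T0wk, so age at collection may differ as well. In males 3 of 9 genes were lower, *Casq2* (562, 657, 867 and 773 CPM in T0wk; log2 fold change -0.70 ± 0.16 SE, adjusted p = 0.00385), *Trdn* (-0.52, adjusted p = 0.0265) and *Camk2d* (-0.32, adjusted p = 0.0203), where 7.4% of all genes were called lower and 13% higher. *Ryr2* gave -0.49 (adjusted p = 0.069). In females only *Ryr2* passed (843, 1104, 640 and 832 CPM in T0wk; -0.55 ± 0.16 SE, adjusted p = 0.0176), against 9.08% of genes called lower and 13.7% higher. The female count moved with single libraries, to 5 without T0wk replicate 3 and to 0 without T0wk replicate 2 or T6wk replicate 2. With the antisense split as a term it was 3, *Ryr2* (-0.52, adjusted p = 0.043), *Casq2* (-0.44, adjusted p = 0.0373) and *Jph2* (-0.50, adjusted p = 0.0321). The male count fell to 1 without T0wk replicate 2 or 4.

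Between T1wk and T6wk none of the 9 genes passed in either sex by limma, edgeR or DESeq2. In males 0.0354% of all genes were lower and 0.13% higher at T6wk than at T1wk, and in females 0.142% and 0.891%. At an unadjusted p under 0.05 limma gave 2 genes in males, *Casq2* (-0.42, adjusted p = 0.236) and *Cacna1c* (0.31, adjusted p = 0.295), and 1 in females, *Cacna1c* (-0.44, adjusted p = 0.313).

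The male and female changes were compared in 1 joint limma fit. No gene differed at T1wk, T3wk or T6wk: 0% of all 16627 genes were called at T1wk, 0% at T3wk and 0% at T6wk, with 2908, 691 and 2886 genes at an unadjusted p under 0.05. DESeq2 called 501, 17 and 95 genes, none of them among the 9, and edgeR 0. The fall of *Ryr2* at T1wk was larger in males by 0.63 on the log2 scale (male minus female -0.63, 95% interval -1.14 to -0.12, adjusted p = 0.181). For *Cacna1c* at T6wk the male minus female difference was 0.50 (0.00 to 1.00, adjusted p = 0.288).

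Ratios within a library do not depend on its scaling factor. *Ryr2*, *Pln* and *Slc8a1* were each divided by *Atp2a2*, the pump gene, giving 24 exact two-sided permutation tests against WT, of which none had an adjusted p under 0.05. The smallest p that 4 against 4 or 4 against 3 allow is 0.0286, and 0.1 for 3 against 3. A single ratio at that floor could not pass after adjustment over the 24 tests. The absence of calls therefore cannot show that the ratios were unchanged. *Ryr2* to *Atp2a2* was lower than WT by a log2 difference of -0.57 at T1wk (exact p = 0.0286) and -0.58 at T3wk (exact p = 0.0571) in males, and of -0.39 at T6wk (exact p = 0.2). In male T0wk it was -0.37 (exact p = 0.0286). In females it was -0.25 at T3wk and -0.46 at T6wk (exact p = 0.0286 each). Each p of 0.0286 became 0.114 after adjustment. The ratio of *Pln* to *Atp2a2* in females at T1wk (-0.32) and that of *Slc8a1* to *Atp2a2* in females at T3wk (-0.31) also had an exact p of 0.0286 and did not overlap WT. The ratio of *Pln* to *Atp2a2* in males was -0.08 at T1wk, with an SD of 0.742 among T1wk hearts against 0.255 in WT.

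How the 9 genes moved against other cardiomyocyte genes was examined with the list of 12 markers. That list fell too: its median log2 fold change was -0.15, -0.38 and -0.36 in males and -0.40, -0.37 and -0.44 in females at T1wk, T3wk and T6wk, with 4, 3 and 3 genes lower in males and 6, 5 and 6 in females. *Tnnc1* was the only one higher, in male T1wk hearts. *Myoz2*, a Z-disc protein, had log2 fold changes of -0.98 and -0.94 at T6wk in males and females, and *Ckm*, muscle creatine kinase, of -0.69 and -1.01. When each library was centred on the mean of this list, 1 calcium gene stayed lower in males, *Ryr2* at T1wk (-0.81, adjusted p = 0.00423), and none at T3wk or T6wk (0 and 1 at an unadjusted p under 0.05). In females none was lower at any week (0 at an unadjusted p under 0.05), and at T1wk *Atp2a2* (0.47, adjusted p = 0.0276) and *Slc8a1* (0.37, adjusted p = 0.0499) were higher. At T6wk centred *Ryr2* was -0.48 (adjusted p = 0.0773) in males and -0.16 (0.417) in females, and centred *Casq2* in males -0.26 (0.207). Centring moved the median of all genes to 0.19, 0.36 and 0.41 in males and 0.45, 0.32 and 0.45 in females, so the share of calls that were lower at T6wk went from 40.1% to 3.68% and from 49.2% to 6.17%.

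**Figure D3:**
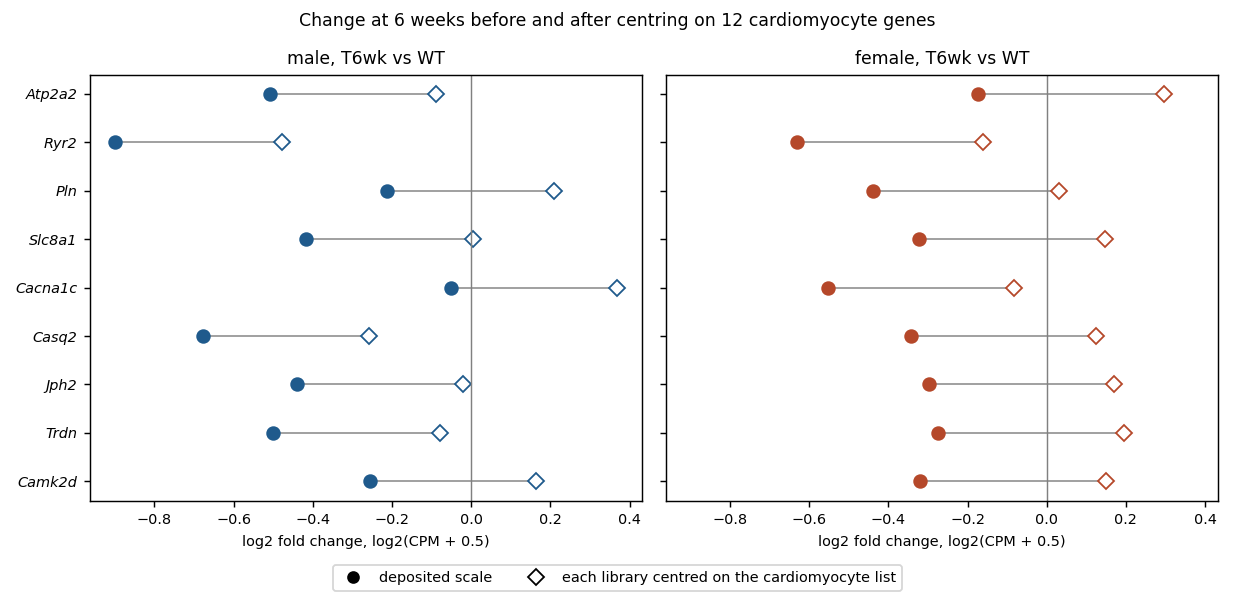
Log2 fold change of each gene at T6wk against WT (x axis), on the deposited scale (filled circles) and after centring each library on 12 cardiomyocyte markers (open diamonds), in males (left) and females (right). After centring the values lie on both sides of 0, with *Ryr2* lowest in both sexes, at -0.48 and -0.16.

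The deposited columns sum to 1063756 to 1193422 in male WT and 817395 to 938167 in male T1wk hearts, because the authors' CPM use normalized library sizes. Scaled to total reads instead, the counts of lower calcium genes became 1, 0 and 1 in males (*Ryr2* both times; 1, 1 and 2 genes at an unadjusted p under 0.05) and 0 at each week in females (0 likewise), while the median of all genes rose to 0.33, 0.23 and 0.16 in males and 0.28, 0.30 and 0.34 in females. The median of the 9 genes was then 0.00, -0.05 and -0.25 in males and 0.04, -0.03 and 0.08 in females. The share of calls that were lower went from 43.6%, 38% and 40.1% to 9.16%, 9.25% and 14.2% in males, and from 46.3%, 46.3% and 49.2% to 7.69%, 7.81% and 11.1% in females. A fall stated above is therefore a fall relative to the bulk of genes in the same library.

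Other genes of calcium handling were taken as a list of 56 in 7 roles, all of which passed the filter on low values. Against WT 12, 4 and 5 were higher and 17, 11 and 12 lower in males at T1wk, T3wk and T6wk, and 9, 11 and 14 higher and 11, 12 and 18 lower in females. Over all genes tested 18.9%, 13.2% and 16.2% were higher and 14.6%, 8.1% and 10.9% lower in males, and 15.3%, 16.8% and 21.7% higher and 13.1%, 14.5% and 21% lower in females. With the antisense split as a term 11 of the 56 were higher and 17 lower in females at T6wk. In T0wk hearts limma called none in males (6 genes at an unadjusted p under 0.05), while 2 were lower in females, *Strit1* (-0.91) and *Atp2a3* (-0.49).

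Among regulators of the pump, 3 of 8 were lower at T6wk in males and 4 of 8 in females, and none was higher, where 10.9% and 21% of all genes were lower. On other scales this changed. Scaled to total reads 2 were lower in each sex and 1 higher in females. Of the 16931 male and 16956 female genes tested, 595 and 1045 were then lower and 3606 and 8356 higher. Centred on cardiomyocyte markers 2 were lower and 2 higher in males and 1 and 1 in females. Of all genes, 255 were then lower and 6682 higher in males, and 590 and 8970 in females. *Strit1* encodes DWORF, a micropeptide that relieves the inhibition of SERCA. It stood at 2.17 to 3.56 CPM in male WT against 0.318 to 0.793 in T6wk hearts and at 4.31 to 6.29 against 0.436 to 0.832 in females, with log2 fold changes of -1.62 (adjusted p = 0.000681) and -2.21 (adjusted p = 1.61e-07). *Hrc*, a calcium-binding protein of the reticulum, was at 909 to 1112 CPM in male WT and 340 to 653 in T6wk hearts (-1.04, adjusted p = 0.00417), and was also lower in females (-0.42, adjusted p = 0.0282), a call not made in females when scaled to total reads (-0.02) or centred on cardiomyocyte markers (0.05). *Ppp1r1a*, an inhibitor of protein phosphatase 1, was lower in both sexes (-0.69, adjusted p = 0.0349, and -0.67, adjusted p = 0.00419), at levels of at most 1.15 CPM and with 60.4% of its exon bases shared with *Pde1b* on the opposite strand.

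Among release channel and junction proteins, 4 of 8 were lower in each sex at T6wk and 1 and 2 higher, where 10.9% and 21% of all genes were lower. Scaled to total reads 2 were lower in each sex and 2 and 3 higher. Centred on cardiomyocyte markers 1 and 2 were lower and 3 higher in each sex. Calls among all genes on these scales are given above, with the pump regulators. *Casq1*, the skeletal form of calsequestrin, was at 5.36 to 13.6 CPM in male WT against 1.27 to 3.42 in T6wk hearts, and at 4.94 to 11.3 against 1.94 to 3.78 in females (log2 fold changes -1.71, adjusted p = 0.0027, and -1.27, adjusted p = 0.000994). *Srl*, sarcalumenin, gave -0.72 (adjusted p = 0.000918) and -0.59 (0.000787), and *Jph1* -0.63 (0.0146) and -0.50 (0.00493). *Fkbp1b*, which encodes calstabin 2, a subunit that binds the ryanodine receptor, was higher in both sexes, at 0.6 to 1.19 CPM in male T6wk against 0.151 to 0.487 in WT hearts and 0.894 to 1.8 against 0.387 to 0.554 in females (0.85, adjusted p = 0.0116, and 0.77, adjusted p = 0.00327). At these levels the log2(CPM + 0.5) scale understates the change.

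Among channel subunits, *Cacna2d1*, the auxiliary α2δ subunit, was lower (-0.84, adjusted p = 0.000416, and -0.55, adjusted p = 0.00208), as was *Cacna1g*, a T-type channel (-0.76, adjusted p = 0.0158, and -0.88, adjusted p = 0.00952). *Cacna1d* and *Cacnb3*, another L-type pore and another β subunit, were higher. *Cacna1d* was at 1.42 to 2.47 CPM in male WT and 4.52 to 5.76 in T6wk hearts (1.18, adjusted p = 0.00165), and at 1.38 to 2.15 and 3.11 to 5.55 in females (1.08, adjusted p = 0.00046). *Cacnb3* was at 3.33 to 5.23 and 7.91 to 9.21 CPM in males (0.94, adjusted p = 0.000784) and at 3.88 to 4.77 and 6.74 to 11 in females (0.91, adjusted p = 2.21e-05). Scaled to total reads, 1 of the 9 subunits was lower at T6wk in males and 0 in females, while 2 and 3 were higher. Centred on cardiomyocyte markers these counts were the same. The falls of *Cacna2d1* and *Cacna1g* in females were thus not called on either scale. Calls among all genes on these scales are given above, with the pump regulators. The exons of *Cacna1d* share 9.72% of their bases with *Chdh* on the opposite strand.

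In males the remaining roles held at most 2 calls each at T6wk, where 10.9% of all genes were lower and 16.2% higher. In females calcium-dependent signalling held 6 of 11 (4 higher) and transport 6 of 8 (4 higher), where 21% of all genes were lower and 21.7% higher. In mitochondrial and plasma membrane transport *Letm1* was lower (-0.79, adjusted p = 0.000112, and -0.48, adjusted p = 0.00169). In T-tubule genes *Mtss1* was lower in both sexes (-0.64, adjusted p = 0.00774, and -0.52, adjusted p = 0.0326), but in females not with the antisense split as a term (-0.32, adjusted p = 0.286). Its exons share 14.6% of their bases with *Ndufb9*, and those of *Camk2b* 12.6% with *Ykt6*, on the opposite strand. In calcium-dependent signalling *Camk2b*, a sister of *Camk2d*, was lower (-0.93, adjusted p = 0.0175, and -0.48, adjusted p = 0.0166), while in females *Calm2* (0.64, adjusted p = 4.52e-05) and *Rcan1* (1.33, adjusted p = 0.0172) were higher. The mean of *Rcan1* in females was 63.7 CPM in WT, 235 in T0wk (67.2 to 593), 154 in T1wk, 65.7 in T3wk and 171 in T6wk hearts. Of 7 IP3 receptor and store-operated entry genes only *Orai3* in males passed (0.53, adjusted p = 0.018). Scaled to total reads 7 of the 56 were higher and 6 lower at T6wk in males and 25 and 4 in females. Of all genes tested, 3606 of 16931 were then higher and 595 lower in males, and 8356 and 1045 of 16956 in females. Centred on cardiomyocyte markers, 19 of the 56 were higher and 5 lower in males, and 25 and 3 in females. Of all genes tested, 6682 were then higher and 255 lower in males, and 8970 and 590 in females. On both of these scales no signalling or T-tubule gene was lower in either sex, *Camk2b* and *Mtss1* included. In females no transport gene was lower on them, *Letm1* included. Higher calls in females were 7 in signalling and 3 in T-tubule genes on each scale, and 4 and 5 in transport. *Strit1* and *Casq1* stayed lower and *Fkbp1b*, *Cacna1d* and *Cacnb3* higher, in both sexes, under the deposited, total-read and centred scales.

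**Figure D4:**
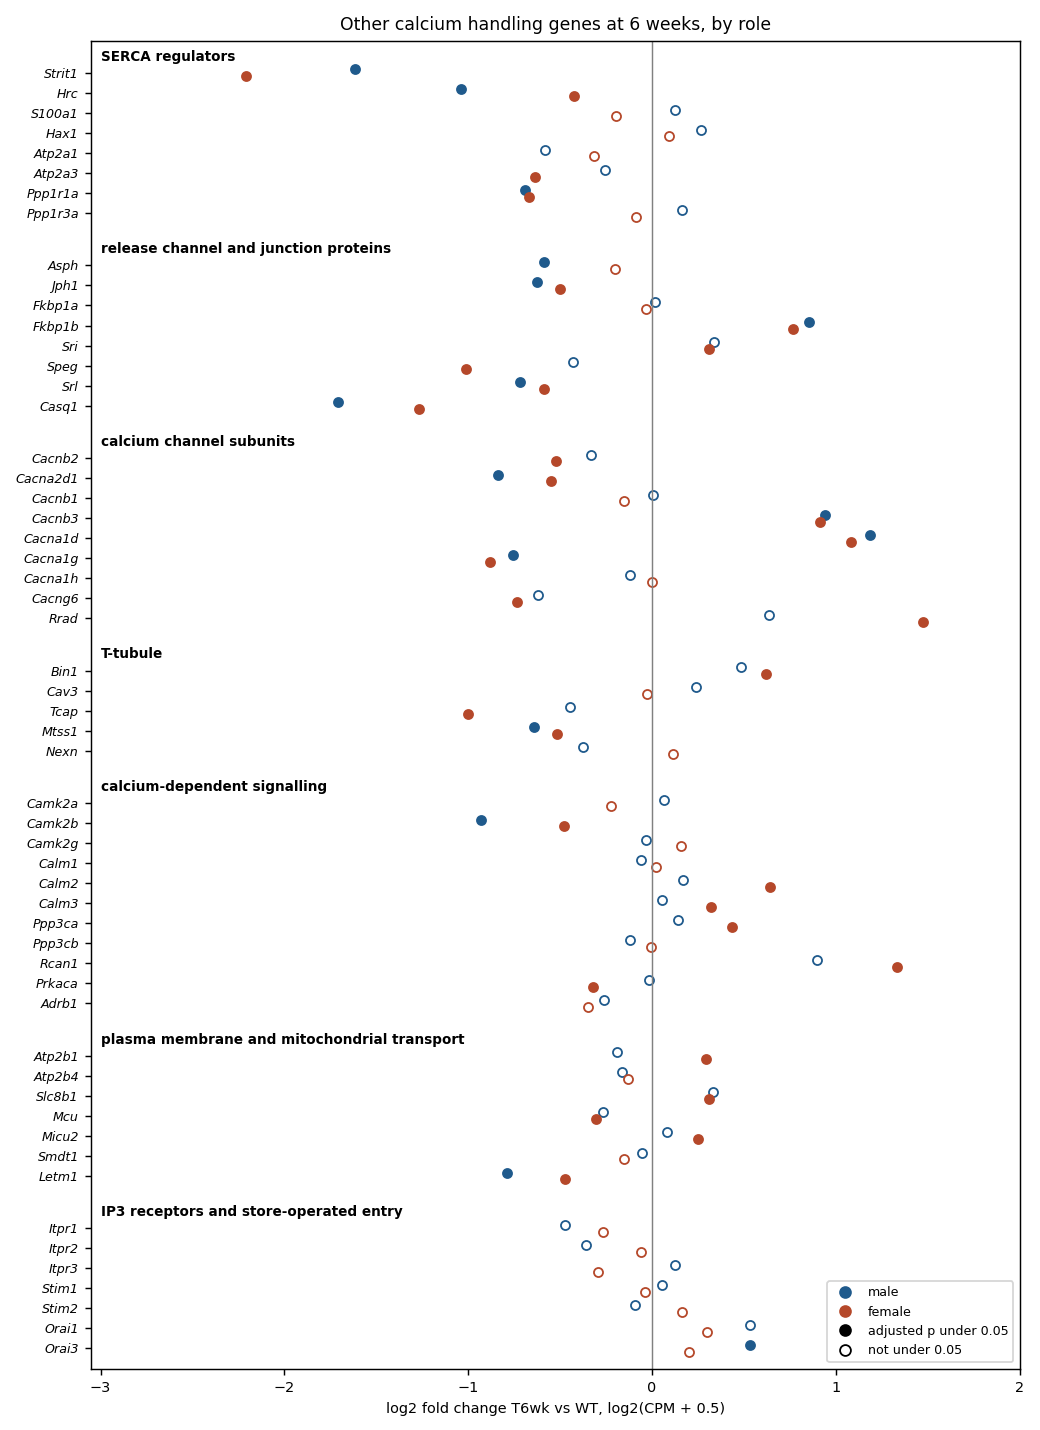
Log2 fold change at T6wk against WT (x axis) of other calcium handling genes (y axis, grouped by role), in males (blue) and females (red), with filled points at an adjusted p under 0.05. *Strit1* and *Casq1* are farthest to the left, with *Strit1* at -1.62 and -2.21, and *Cacna1d*, *Cacnb3* and *Fkbp1b* lie to the right in both sexes.

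Levels were also taken per kilobase of merged exons, which join every annotated exon of a gene. Transcripts present in heart may be shorter, so the order of genes depends in part on the annotation. *Atp2a2* was highest, at 1098 ± 117 CPM per kb (SD, n = 3) in male WT and 814 in female WT hearts. *Pln* followed at 195 ± 20.4 (SD, n = 3) and 247 ± 15.4 (SD, n = 4), then *Casq2* at 122 and 113, *Jph2* at 77.8 and 63.9, and *Ryr2* at 49.4 and 29.4. *Slc8a1* (13.6 and 12.2), *Cacna1c* (12.9 and 10.2) and *Trdn* (12.1 and 10.3) lay close together, and *Camk2d* was lowest, at 4.28 and 3.98. The order of the first 5 was the same in both sexes. The tables of the 2 sexes were scaled separately, so levels are set side by side and not tested.

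Across the 18 male and 20 female libraries with a group, the profiles of the 9 genes were compared with all 16627 genes by Pearson correlation of log2 values, a description in which the libraries share their groups. The genes most like *Ryr2* were *Vps13d* (0.952 in males, 0.932 in females), *Trak2* (0.92, 0.94) and *Ppm1l* (0.954, 0.912). *Casq2* was most like *Ank1* (0.896, 0.899), *Oxct1* (0.896, 0.911) and *Klhdc8a* (0.886, 0.941), and *Trdn* like *Mtres1* (0.926, 0.849), *Hrc* (0.824, 0.848) and *Timm44* (0.803, 0.869). Among themselves the 9 genes were alike to different degrees. *Ryr2* and *Slc8a1* gave 0.769 and 0.833, *Atp2a2* and *Jph2* 0.839 and 0.637, and *Casq2* and *Slc8a1* 0.841 and 0.752. *Pln* and the pump it inhibits, *Atp2a2*, gave 0.041 in males and 0.399 in females, and *Cacna1c* and *Casq2* -0.377 and 0.292.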

How the data were processed

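PolyA RNA of 40 hearts was sequenced by the authors, 1 library per mouse. Per the labels and the study's methods, reads were aligned to GRCm39 with STAR, counted with featureCounts and normalised with edgeR. Deposited were signal values, 1 table per sex: CPM on normalized library sizes, in which 100% of values lay within 0.001 of a whole number of reads. The tables had been filtered before they were deposited, and every column was assigned to a library.

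Groups were taken from the labels, and 2 male libraries whose title and description disagree were left out, so 38 entered. Genes with at least 0.5 CPM in 3 libraries were kept (16931 male, 16956 female). limma 3.58.1 (R 4.3.3) with an intensity trend was fitted to log2(CPM + 0.5) over the 5 groups of a sex, with Benjamini-Hochberg adjustment over all genes. edgeR 4.0.16 (quasi-likelihood) and DESeq2 1.42.0 were run on the recovered reads as alternatives, and the steps were tested on simulated data. Other alternatives were pseudocounts of 0.1 and 2, no filter or 1 CPM in 4 libraries, median-of-ratios, total-read and cardiomyocyte-centred scaling, only the groups compared, the contradictory libraries placed by either label, a replicate block, leaving out each library, and the antisense split. Ratios were tested by exact two-sided permutation, enumerated in R. Correlations and promoters were computed with Python 3.11.15. Gene positions and exon lengths come from GENCODE on GRCm39. No source says that a library shares an animal with another, and p-values measure the spread between these mice. The chi-square per gene between replicates was at least 6.76 over 54 pairs, so none counted as a repeat.

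The genes that could be named were the 10 members, the 56 other calcium genes, the cell markers, *Il11*, and for each member the 3 genes most like it by the lower of its male and female correlations. The antisense transcripts were named after their values were seen. Members, lists and tests were chosen with earlier results of these data known. The roles of genes given are background knowledge. *Sln* and its planned ratio were not analysed here. Values of 1 of the 56 other calcium genes are not reported here, though it is part of the counts.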

Additional observations from a re-analysis of the deposited data

How the results depend on the processing

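Counts of lower calcium genes were 3, 2 and 4 in males and 1, 4 and 4 in females at T1wk, T3wk and T6wk, and 3 and 1 in T6wk against T0wk. Centred on cardiomyocyte markers they were 1, 0 and 0 in males and 0, 0 and 0 in females, with 1 (*Cacna1c*, higher) and 0 called against T0wk. Scaled to total reads, an alternative chosen after seeing the data, they were 1, 0 and 1, and 0, 0 and 0, with 1 (*Casq2*) and 0 called against T0wk. Fitted on only the groups compared they were 1, 4 and 2 in males with 1 against T0wk, and 5 at T1wk and 7 at T3wk in females with 0 against T0wk. DESeq2 gave 5, 4 and 7 in males with 5 against T0wk, and 2 against T0wk in females. DESeq2 also called more genes in all, 6040, 4077 and 5121 in males where limma called 5671, 3610 and 4580. Against T0wk it called 4024 genes in males and 4243 in females, where limma called 3450 and 3860. With the contradictory libraries placed by their descriptions the male T1wk count was 5, and by their titles the T3wk, T6wk and T6wk against T0wk counts were 0, 0 and 0. Titles put a library with 0.597 CPM of *Il11* in T6wk, where the other male hearts had 407 to 819. They put one with 511 CPM in WT, where the other male hearts had at most 0.147. Also chosen after seeing the data, leaving out the 5 low-antisense libraries gave 2 at T1wk, 0 at T6wk and 0 against T0wk in females, and the antisense split as a term 3 at T1wk and 3 against T0wk. Of the changes called on either scale, signs turned when centred for *Slc8a1* in males at T6wk (0.004), for *Atp2a2* (0.47), *Slc8a1* (0.37) and *Trdn* (0.12) in females at T1wk, and for *Pln* (0.03) and *Camk2d* (0.15) in females at T6wk, and when scaled to total reads for *Camk2d* in males at T1wk (0.087) and females at T6wk (0.078). Changes called on neither scale also turned.

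Leaving out 1 library at a time gave 1 to 4, 1 to 3 and 2 to 4 lower genes in males and 0 to 2, 3 to 4 and 2 to 5 in females, and 1 to 4 and 0 to 5 against T0wk. The lowest male counts came without WT replicate 3 (1 at T1wk, 2 at T6wk) and T3wk replicate 4 (1 at T3wk). The female T1wk count was 0 without WT replicate 1, 2 or 4 or T1wk replicate 3 or 4 and 2 without WT replicate 3, and the female T6wk count was 2 without T6wk replicate 2. The female count against T0wk was 2 without T6wk replicate 3 or 4. The counts of 0 in T0wk against WT, T6wk against T1wk, the sex difference and the ratios stayed 0 in each alternative run. For the ratios this carries little weight, since the smallest possible p kept any single test from passing after adjustment. The planned ratio of *Sln* could not be computed, since *Sln* was not analysed here.

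With the replicate number as a block, the counts stayed within 1.5 times. *Camk2d* in males at T1wk no longer passed (-0.26, adjusted p = 0.0557) and *Casq2* in females at T6wk passed (-0.34, adjusted p = 0.0382). The deviations of same-numbered libraries had a mean correlation of 0.013 in males (-0.134 to 0.256) and 0.025 in females (-0.342 to 0.563). Such a mean cannot show whether some of the numbers pair mice. The cause of these shifts was not tested, and 3 or 4 mice per group limit the precision.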

Other observations

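The 2 male libraries with contradictory labels are given as values. The first, WT by its description and T6wk by its title, had 0.597 CPM of *Il11*, 1249 CPM of *Ryr2*, 710 of *Casq2*, 13889 of *Atp2a2*, 591 of *Jph2*, 242 of *Trdn* and 1325 of *Pln*. The second, with the labels the other way round, had 511 CPM of *Il11*, 861 of *Ryr2*, 465 of *Casq2*, 10219 of *Atp2a2*, 286 of *Jph2*, 170 of *Trdn* and 1308 of *Pln*. *Slc8a1* (246 and 244 CPM), *Cacna1c* (274 and 289) and *Camk2d* (111 and 114) were close in both. The *Il11* and *Ryr2* values are given without assigning either library to a group.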
